A study of Mus musculus with 2 samples.

Results

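Chemokines and their receptors were followed across the cells of denervated mouse muscle. The family was taken by gene symbol: every feature whose symbol was Ccl, Cxcl, Ccr, Cxcr or Ackr followed by digits and at most 1 letter, plus Cx3cl1, Cx3cr1, Xcl1 and Xcr1. This gave 66 of the 32287 features, under 60 distinct symbols, of which 38 were ligands and 22 were receptors. The cells came from tibialis anterior and gastrocnemius of S100GFPtg mice, labelled WT, 2-month-old males that carry enhanced green fluorescent protein (EGFP) under the S100B promoter. Muscles were taken 7 days after crush of the sciatic nerve. They were minced, digested for 60 minutes at 37 °C, and live (propidium iodide negative) cells were sorted by fluorescence. The GFP+ fraction, sequenced as 1 droplet library with 3′ tags, is described here; counts of the GFP- fraction were not analysed here. Most deep barcodes of this GFP+ library, 6076 of 8742, passed a gate on myeloid genes alone. The methods speak of pooled mice and the series text of a single crushed mouse, so the number of animals is not certain. No uninjured or replicate library was analysed here, so no test was possible and no level below can be ascribed to the injury.

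Chemokines are small secreted proteins that steer the migration of leukocytes. They act on receptors with several membrane spans that signal through inhibitory G proteins, and atypical receptors bind the same ligands without that signal and clear or store them. Inflammatory chemokines are switched on in damaged tissue, where they draw monocytes and neutrophils, and homeostatic chemokines are made steadily by stromal cells and vessels. After a nerve crush, monocytes enter the nerve and the muscle and help to remove debris.

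The library held 36400 barcodes and 170648616 unique molecular identifiers (UMIs), a median of 2130 per barcode. Of these barcodes, 372 (1.02%) also stood in the barcode list of the GFP- library. The 8742 barcodes with at least 5000 UMIs and under 10% mitochondrial counts were sorted into classes by UMIs of marker genes, none of which was a chemokine or a receptor. Barcodes with markers of several lineages (539) or several subsets (280) were left out, and 6914 barcodes (79.1%) fell into 17 classes of at least 30 cells. They held 90464917 UMIs. The classes were 4 macrophage-like classes of 667 to 1919 cells, monocyte-like (268), dendritic cell 1-like (220) and dendritic cell 2-like (184) cells, 4 fibroblast-like classes of 128 to 313 cells, satellite cell and myoblast-like (245), tenocyte-like (395), Schwann-like (71), smooth muscle and pericyte-like (45), endothelial-like (39) and erythroid-like (50) cells. The UMIs of a gene were pooled over the cells of a class and given as counts per 1000000 UMIs (CPM). The assay tags 1 end of each transcript, so CPM were not divided by gene length. Intervals are exact 95% Poisson intervals for CPM and Clopper-Pearson intervals for shares of cells, and they cover counting error only.

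Sums of the marker lists that made the gates describe the classes and do not test them. The 10 fibroblast markers summed to 29862 to 46188 CPM in the fibroblast-like classes, to 46980 CPM in tenocyte-like cells, which are fibroblasts of tendon and share these genes, and to 56.4 to 108 CPM in the 7 myeloid classes. Schwann-like cells had 1576 CPM and satellite cell and myoblast-like cells 1111 CPM of them. The myeloid list summed to 3992 to 26643 CPM in the myeloid classes and to 96.0 to 193 CPM in the 9 non-myeloid classes. In erythroid-like cells, which should lack nearly all genes of the family, it summed to 88.3 CPM. These cells held 81 ligand UMIs and 1 receptor UMI in all, or 128 and 1.58 CPM, and values of other classes near their level were read as background.

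Many of the genes lie in clusters that arose by duplication. According to the RefSeq annotation of GRCm38.p6, the build that the labels name as mm10, Ccl2, Ccl7, Ccl11, Ccl12 and Ccl8 lie in that order within 81.2 kb, at chr11:82035577-82116799. Ccl5, Ccl9, Ccl6, Ccl3 and Ccl4 lie within 139 kb, at chr11:83525778-83664683. The gene models of Ccl3 and Ccl4 overlap there. The neutrophil-attracting ligands Cxcl5, Cxcl3, Cxcl15, Cxcl1 and Cxcl2 lie within 147 kb, at chr5:90759298-90905938, and Cxcl9 and Cxcl10 within 27.6 kb, at chr5:92321331-92348889.

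The 3 neutrophil-attracting ligands with enough UMIs to compare, Cxcl1, Cxcl2 and Cxcl3, are shown with the 110 bases before their transcription start. They are closely related genes, and Cxcl1 differed from Cxcl2 and Cxcl3 in the cells that held it. The sequences are RefSeq GRCm38.p6, plus strand, 5′ to 3′, with matches to a kappaB-type motif (GGG, any 2 bases, then TTTCC, or on the other strand GGAAA, any 2 bases, then CCC) in capitals. Cxcl1 was read from chr5:90891135-90891244, Cxcl2 from chr5:90903789-90903898 and Cxcl3 from chr5:90785991-90786100.
Cxcl1: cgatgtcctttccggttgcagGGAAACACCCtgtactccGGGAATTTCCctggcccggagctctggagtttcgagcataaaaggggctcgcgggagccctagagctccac
Cxcl2: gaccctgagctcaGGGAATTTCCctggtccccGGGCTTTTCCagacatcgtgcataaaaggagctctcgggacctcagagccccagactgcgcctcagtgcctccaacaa
Cxcl3: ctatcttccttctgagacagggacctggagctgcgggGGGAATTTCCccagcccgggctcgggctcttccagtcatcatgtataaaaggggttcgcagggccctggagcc

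Cxcl1 had 2 matches, 89 and 71 bases before the start, Cxcl2 had 2, at 97 and 78 bases, and Cxcl3 had 1, at 73 bases. This motif is bound by NF-kappaB, a factor of the inflammatory response. Among 32851 RefSeq windows of 250 bases before a start, 1.41% held a match. Promoter windows were at hand for 32 of the 43 members with at least 100 UMIs over the cell classes, and 5 of these held a match, the others being Ccl9 (35 bases before the start) and Ccr3 (179 bases). A match describes letters and was not tested as a site.

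Cxcl10, an interferon-induced ligand of T cells, is shown because it carries matches of another kind. Its 250 bases before the start, chr5:92348890-92349139 on the minus strand, hold 1 match to an interferon response type motif (GAAA, any 2 bases, then GAAA, or on the other strand TTTC, any 2 bases, then TTTC), 213 bases before the start, and 1 to an AP-1 motif (TGANTCA, which is its own reverse complement), 74 bases before it, both in capitals.
Cxcl10: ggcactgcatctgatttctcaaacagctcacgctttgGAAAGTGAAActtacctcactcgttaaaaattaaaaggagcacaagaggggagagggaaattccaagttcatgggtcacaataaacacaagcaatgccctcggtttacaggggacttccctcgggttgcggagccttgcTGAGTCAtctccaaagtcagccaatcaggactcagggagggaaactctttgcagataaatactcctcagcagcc

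The interferon type motif stood in 2.98% of all windows and in 3 symbols of the family, with Cxcl14 (172 bases before the start) and Ccl19 (208 bases) besides Cxcl10. The AP-1 motif stood in 6.75% of all windows and in 4 symbols, which were Cxcl10, Ccl9, Ccr3 and Ccl27a. Ccl2, Ccl7 and Ccl4 are named without a promoter.

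Of the 66 features, 43 had at least 100 UMIs over the classes and were compared, 10 had 1 to 99 UMIs and 13 had none there. The ligand genes together made up 21478 to 26445 CPM of the 4 macrophage-like classes. Monocyte-like cells held 13271 CPM, dendritic cell 2-like cells 5639.7 CPM and dendritic cell 1-like cells 1622 CPM. Among the non-myeloid classes the ligand sum was 11373 CPM in Smoc2 Hsd11b1 fibroblast-like cells and 6305 CPM in endothelial-like cells, where 4903 CPM was Ccl21a held by 7 of the 39 cells. It was 2465 to 5003 CPM in the other 3 fibroblast-like classes and 384 to 802 CPM in the Schwann-like, tenocyte-like, smooth muscle and pericyte-like and satellite cell and myoblast-like classes. The receptor sum was far lower, and 1667 CPM in monocyte-like cells was its highest value. The lowest, outside erythroid-like cells, was 78.9 CPM in Schwann-like cells.

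Most members leaned to one side of the myeloid boundary. The mean CPM over the 7 myeloid classes was at least 4 times that over the 9 non-myeloid classes for 25 of the 43 members (58.1%). Over all 14140 features with 100 UMIs, 9.0% met this rule. The opposite held for 11 members (25.6%), where the share over all features was 17.7%. The remaining 7 members, Cxcl1, Cxcl9, Ccl25, Cxcr5, Ackr4, Cx3cr1 and Ccr9, met neither rule. The median log2 ratio of the myeloid to the non-myeloid mean was 3.29 over the members and -0.32 over all features. By role, all 4 monocyte-attracting and all 5 inflammatory CC ligands compared were myeloid, as were 8 of 11 signalling receptors. Of 7 homeostatic ligands 6 were non-myeloid, and of 4 atypical receptors 3 were non-myeloid.

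**Figure D1:**
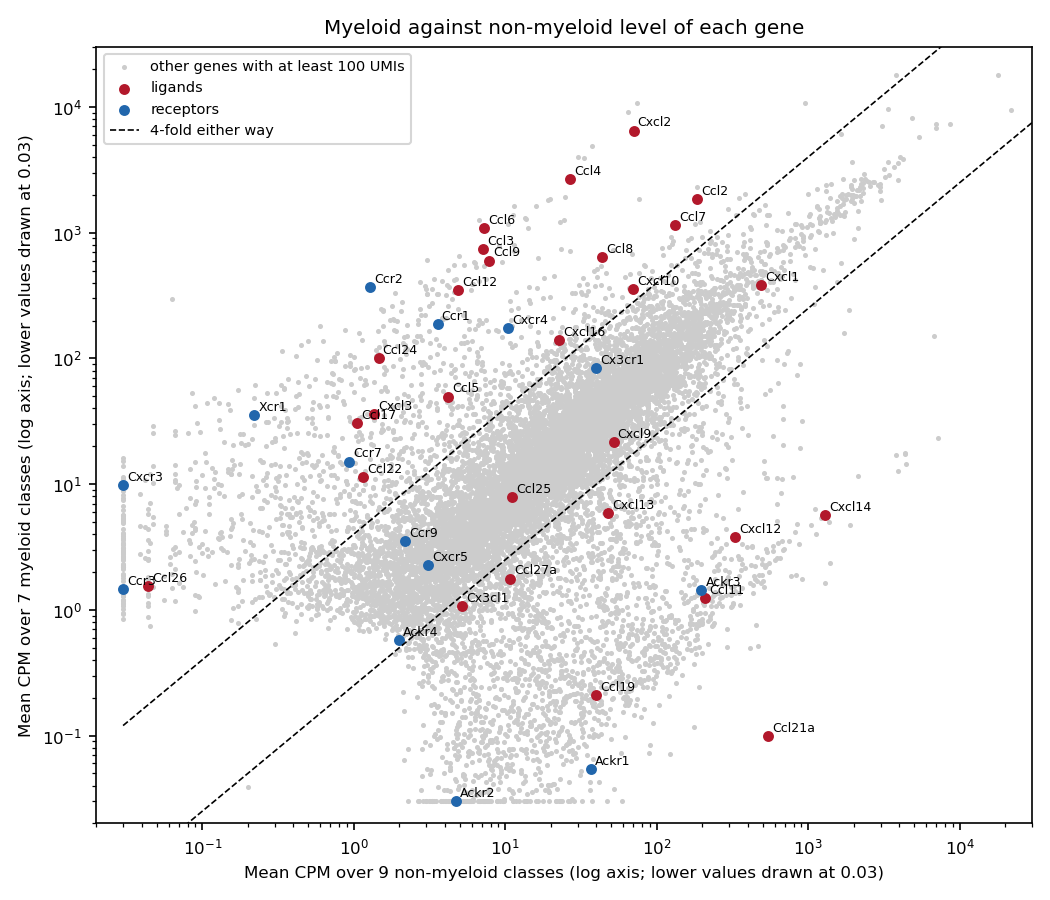
Mean CPM over the 7 myeloid classes (vertical, log axis) against mean CPM over the 9 non-myeloid classes (horizontal, log axis) for each feature with at least 100 UMIs. Grey points are all other genes, coloured points are the members by kind, 1 of which is not drawn, and dashed lines mark 4-fold either way. Most coloured points lie above the upper line, and the 11 non-myeloid members lie below the lower line.

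A single leading class, at least 4 times the level of the next one, was found for 7 of the 43 members (16.3%), compared with 4.55% of all features. They were Cxcl14, Ackr3, Ccl21a, Xcr1, Cxcr3, Ccl22 and Cxcl9. For Cxcl9 and Ccl22 single cells decided the call, as described with each gene, and without the cell that held most UMIs of each member the count was 5. Most of the inflammatory ligands had no leading class because they were spread over the macrophage-like classes.

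The monocyte-attracting ligands Ccl2, Ccl7, Ccl8 and Ccl12 were RNAs of macrophage-like cells and were highest in the Lyve1 Folr2 macrophage-like class with low MHC class II, a profile of resident macrophages. Ccl2, the main ligand of Ccr2, was at 3239.6 CPM (3217 to 3262) there. It was at 2954 CPM in the MHC class II high class of Lyve1 Folr2 macrophage-like cells, 2769.5 CPM in MHC class II macrophage-like and 2643 CPM in Gpnmb Fabp5 macrophage-like cells. The 4 macrophage-like classes thus lay within a narrow range, and monocyte-like (975 CPM) and dendritic cell 2-like cells (296 CPM) lay lower. After each cell was thinned to 5000 UMIs, 94.6% (93.5 to 95.6%) of the Lyve1 Folr2 MHC class II low cells and 4.0% (0.488 to 13.7%) of erythroid-like cells held a Ccl2 UMI. With all UMIs the shares were 96.4% and 20.0%, in cells with a median of 11982 and 12636.5 UMIs.

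Ccl2 was also measured in fibroblast-like cells, at 298 to 431 CPM in their 4 classes. This was above the 25.2 CPM (14.4 to 41.0) of erythroid-like cells, the class that should lack it. Schwann-like cells, at 24.8 CPM (14.2 to 40.2), could not be told from that background. Ccl7, a second ligand of Ccr2, followed Ccl2 closely. It ranged from 2322 CPM in the Lyve1 Folr2 MHC class II low class to 346 CPM in monocyte-like cells and 51.4 CPM in dendritic cell 1-like cells, with 188 to 298 CPM in fibroblast-like cells.

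Ccl8 and Ccl12 separated the macrophage-like classes more sharply than Ccl2 and Ccl7. Ccl8, which in mice acts on Ccr8, was at 2907 CPM (2885 to 2928) in the Lyve1 Folr2 MHC class II low class, 1201 CPM (1182 to 1220) in the MHC class II high class and 175 CPM in MHC class II macrophage-like cells. Gpnmb Fabp5 macrophage-like cells had 155 CPM and monocyte-like cells 26.2 CPM, the latter close to the 20.5 CPM (10.9 to 35.1) of erythroid-like cells. Fibroblast-like cells, at 53.1 to 90.5 CPM, lay above that background. Ccl8 was uneven between cells. Across the 1919 cells of its highest class the lower quartile was 122 CPM, the median 834 CPM, the upper quartile 3251 CPM and the highest cell 54404 CPM.

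Ccl12, a ligand of Ccr2 found in rodents, was at 977, 724 and 557 CPM in the Lyve1 Folr2 MHC class II low, MHC class II high and MHC class II macrophage-like classes. It was at 127 CPM in Gpnmb Fabp5 macrophage-like cells and 48.4 CPM in monocyte-like cells. No other class passed the 9.46 CPM of erythroid-like cells. Ccl2 and Ccl12 differed in how far they extended to the Gpnmb Fabp5 class, although both are in the same stretch of chromosome 11 and both act on Ccr2.

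**Figure D2:**
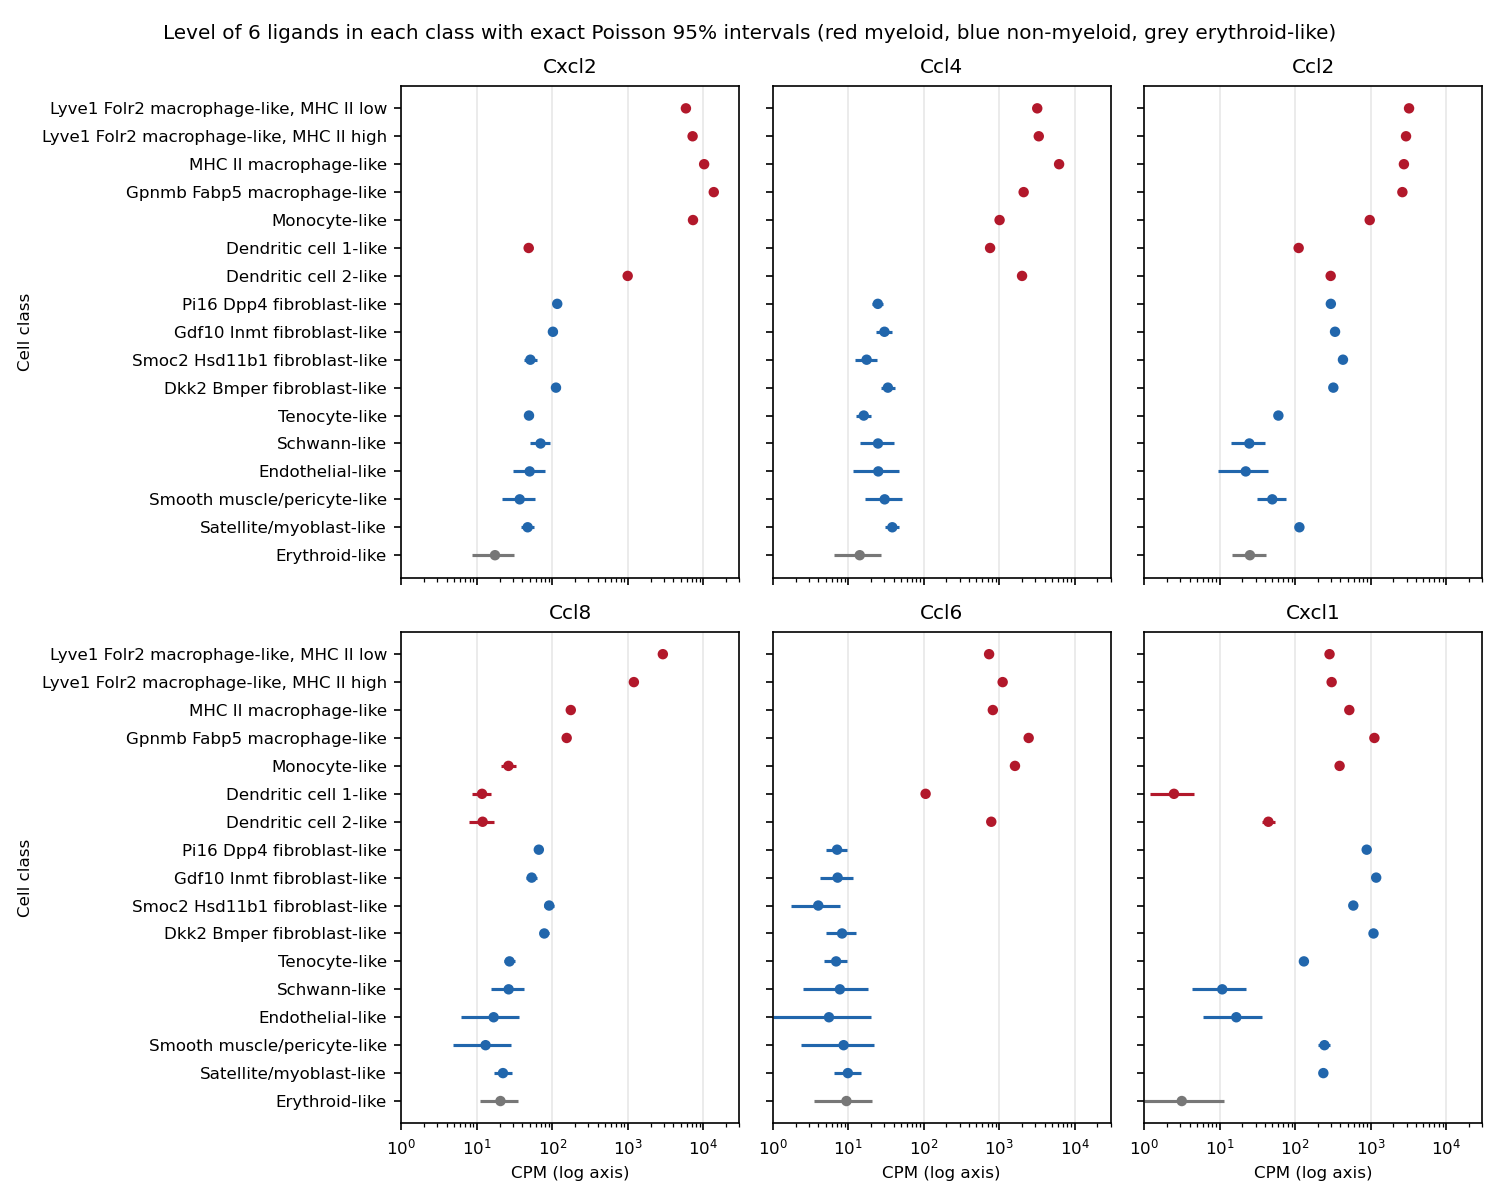
CPM (log axis) of 6 ligands in each of the 17 classes, with exact Poisson 95% intervals from pooled UMIs of 1 library. Red points are myeloid, blue points non-myeloid and grey points erythroid-like classes. Ccl8 is highest in the Lyve1 Folr2 class with low MHC class II, at 2907 CPM, and Cxcl2 in the Gpnmb Fabp5 class, at 13747 CPM.

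The inflammatory CC ligands Ccl3, Ccl4, Ccl5, Ccl6 and Ccl9 were myeloid without exception but split into different patterns. Ccl3 and Ccl4, which draw monocytes and T cells, were highest in MHC class II macrophage-like cells. Ccl4 was at 6218 CPM (6170.3 to 6266) there, 3344 CPM and 3192 CPM in the Lyve1 Folr2 classes with high and low MHC class II, 2109 CPM in Gpnmb Fabp5 macrophage-like and 2008 CPM in dendritic cell 2-like cells. Dendritic cell 1-like cells, which had little of most ligands, still had 757 CPM of Ccl4. All 9 non-myeloid classes were at 16.04 to 38.3 CPM, where erythroid-like cells were at 14.2 CPM (6.49 to 26.9). Over the 981 cells of the highest class Ccl4 had a lower quartile of 630.4 CPM, a median of 3392 CPM and an upper quartile of 9684 CPM.

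Ccl3 was at 1468 CPM (1445 to 1491) in MHC class II macrophage-like cells and at 1393 CPM in the Lyve1 Folr2 MHC class II low class, a ratio of 1.05. It was lower, at 333 CPM, in monocyte-like cells. Ccl6 and Ccl9, ligands of Ccr1, were highest in Gpnmb Fabp5 macrophage-like cells, a profile of lipid-loaded macrophages. Ccl6 was at 2457 CPM (2429 to 2486) there and next at 1618 CPM in monocyte-like cells. Ccl9 was at 1116 CPM (1098 to 1136) and next at 720.3 CPM in the same classes. Both ligands were lowest among macrophage-like cells in the Lyve1 Folr2 MHC class II low class, at 735 and 488 CPM, the class in which Ccl8 was highest.

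Ccl5, a ligand of Ccr1 that T cells also make, was far lower. It was at 119.7 CPM in MHC class II macrophage-like, 99.6 CPM in dendritic cell 2-like and 67.9 CPM in monocyte-like cells. The 20 barcodes that passed a T and natural killer cell list, 18 of which also passed the myeloid gate, held 492 Ccl5 UMIs. This list was also a lineage gate, so the 18 were left out as barcodes of several lineages, and the 2 lymphoid barcodes had no class. None of the 20 therefore entered the Ccl5 levels above. Whether T cells that failed the list added to the myeloid Ccl5 level was not tested.

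**Figure D3:**
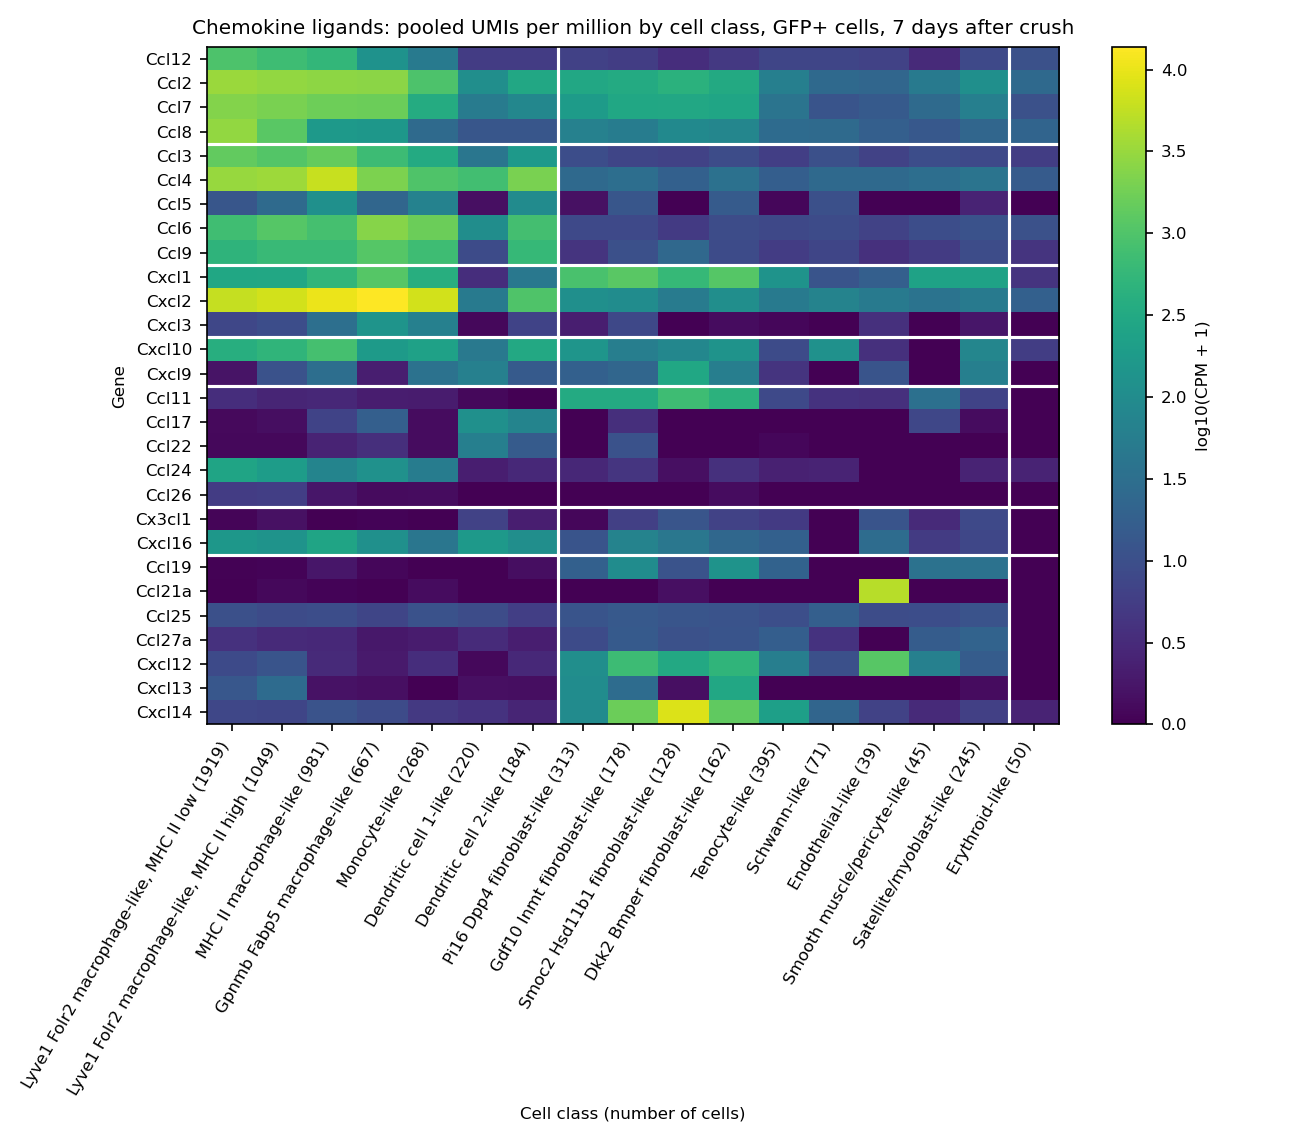
Chemokine ligands by class, as log10(CPM + 1) of pooled UMIs, with the number of cells of each class on the horizontal axis and genes grouped by role on the vertical axis. Inflammatory ligands fill the macrophage-like columns, with Cxcl2 at 13747 CPM in the Gpnmb Fabp5 class, and Cxcl12, Cxcl14 and Ccl11 fill the fibroblast-like columns.

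Of the neutrophil-attracting ligands whose promoters are printed above, Cxcl2 and Cxcl3 were myeloid and Cxcl1 met neither rule. Cxcl2 had the highest level of any member pooled over a whole class. It reached 13747 CPM (13681 to 13814) in Gpnmb Fabp5 macrophage-like cells, 10248 CPM (10187 to 10310.1) in MHC class II macrophage-like cells and 7294 CPM (7195 to 7395) in monocyte-like cells. The Lyve1 Folr2 classes were at 7205 and 5877 CPM, dendritic cell 2-like cells at 994 CPM, and dendritic cell 1-like cells only at 48.5 CPM. The non-myeloid classes were at 36.9 to 116 CPM and erythroid-like cells at 17.3 CPM (8.66 to 31.0).

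Cxcl2 was present in nearly every Gpnmb Fabp5 macrophage-like cell. After thinning, 96.7% (95.05 to 97.92%) of these 667 cells held a Cxcl2 UMI, compared with 18.3% (10.1 to 29.3%) of Schwann-like and 10.0% (3.33 to 21.8%) of erythroid-like cells. Before thinning, 98.5%, 26.8% and 16% did, and a cell of these classes held a median of 16949, 8129 and 12636.5 UMIs. Across the Gpnmb Fabp5 cells the lower quartile was 5217 CPM, the median 11478 CPM and the upper quartile 19514 CPM.

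Cxcl1, the close relative of Cxcl2, was shared by macrophage-like and fibroblast-like cells. Its level was 1188 CPM (1144 to 1233) in Gdf10 Inmt fibroblast-like, 1125 CPM (1106 to 1145) in Gpnmb Fabp5 macrophage-like, 1095 CPM (1055 to 1137) in Dkk2 Bmper fibroblast-like and 889.8 CPM in Pi16 Dpp4 fibroblast-like cells. The counting interval of the Gpnmb Fabp5 class overlapped those of both its neighbours in this order, while those of Gdf10 Inmt and Dkk2 Bmper cells did not overlap each other. Smooth muscle and pericyte-like (245 CPM) and satellite cell and myoblast-like cells (237 CPM) held it too, while the intervals of Schwann-like (10.8 CPM) and erythroid-like cells (3.15 CPM) overlapped. The shares of cells gave another order. A Cxcl1 UMI was found after thinning in 83.7% (77.4 to 88.8%) of Gdf10 Inmt fibroblast-like cells but in 46.0% (42.2 to 49.9%) of Gpnmb Fabp5 macrophage-like and 2.0% of erythroid-like cells, so a smaller share of macrophage-like cells carried a pooled level close to that of the fibroblast-like cells. All UMIs gave 88.8%, 51.3% and 4.0%, with medians of 12094, 16949 and 12636.5 UMIs per cell.

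Cxcl3 followed Cxcl2, with 136 CPM in Gpnmb Fabp5 macrophage-like and 62.2 CPM in monocyte-like cells and 6.8 CPM in Gdf10 Inmt fibroblast-like cells, its highest level outside the myeloid classes. Cxcl5 had 75 UMIs over the classes, of which 64 were in 2 of the 667 Gpnmb Fabp5 macrophage-like cells, and Cxcl15 had 4. The receptor of these ligands, Cxcr2, had 60 UMIs over the classes and 176 in all barcodes. Neutrophils, the cells best known for Cxcr2, formed no class, since only 16 deep barcodes passed the neutrophil list and 13 of these passed the myeloid gate as well. The genes most raised in the monocyte-like class were S100a9, Retnlg and S100a8, all on that list. The median sum of the list there, 138 CPM, was the highest of the classes. Whether neutrophils are among the monocyte-like cells was not tested.

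The interferon-induced ligands Cxcl9 and Cxcl10 act on Cxcr3. Cxcl10 was highest in MHC class II macrophage-like cells, at 825 CPM (808 to 843), and was at 500.2, 398 and 313 CPM in the Lyve1 Folr2 MHC class II high, Lyve1 Folr2 MHC class II low and dendritic cell 2-like classes. It was carried by part of the cells, with a median of 214 CPM and an upper quartile of 1077 CPM over the MHC class II macrophage-like cells, of which 55.7% (52.5 to 58.8%) held a UMI once thinned and 61.9% with all UMIs. In erythroid-like cells the corresponding values were 2.0% and 4.0%. Median depth was 9638 UMIs in the first class and 12636.5 in the second. Schwann-like cells had 121 CPM (95.4 to 151) against 4.73 CPM (0.976 to 13.8) in erythroid-like cells, but only 8.45% (3.16 to 17.5%) of the 71 cells held a UMI once thinned and 16.9% with all UMIs (median 8129 UMIs per cell).

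The Cxcl9 level of the Smoc2 Hsd11b1 fibroblast-like class, 295 CPM and 4.79 times the next class, came from 1 cell. That cell held 540 of the 590 UMIs (91.5%) as well as 109 Cxcl10 UMIs among 26489 UMIs in all. Without it the class was at 25.3 CPM, 0.411 times the 61.6 CPM of dendritic cell 1-like cells. Cxcl11 was not analysed here.

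The ligands of eosinophils and T cells were divided by cell type. Ccl24, an eosinophil attractant acting on Ccr3, was myeloid, at 255 CPM in the Lyve1 Folr2 MHC class II low class, 195 CPM in the MHC class II high class and 124 CPM in Gpnmb Fabp5 macrophage-like cells. It was uneven, with a median of 97.3 CPM over the 1919 cells of the highest class and 20836 CPM in the highest cell. Ccl11, which acts on the same receptor, was a fibroblast RNA, at 703 CPM (667 to 741) in Smoc2 Hsd11b1, 451 CPM in Dkk2 Bmper, 342 CPM in Gdf10 Inmt and 336 CPM in Pi16 Dpp4 fibroblast-like cells, and at most 2.53 CPM in any myeloid class. Ccl11 stands between Ccl7 and Ccl12 on chromosome 11, both of which were myeloid. Ccl26 reached only 4.86 CPM.

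Ccl17 and Ccl22, ligands of Ccr4 on T cells, were dendritic cell RNAs. Ccl17 was at 119.5 CPM in dendritic cell 1-like and 71.7 CPM in dendritic cell 2-like cells, and Ccl22 at 59.9 and 14.3 CPM, a ratio of 4.17. In dendritic cell 1-like cells 1 cell that passed a mature dendritic cell list held 98 of the 241 Ccl22 UMIs. Leaving out the barcodes of that list gave 35.8 and 13.6 CPM for Ccl22 and 98.3 and 72.1 CPM for Ccl17. The list was passed by 17 deep barcodes, which held 528 Ccl22, 455 Ccr7, 427 Ccl5 and 404 Ccl17 UMIs, and most of them, 13, also passed the myeloid gate. Ccr4 had 21 UMIs over the classes.

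Of the 7 homeostatic ligands, 6 were non-myeloid and Ccl25 met neither rule. Cxcl14, a ligand of fibroblasts and epithelia, was at 8377 CPM (8250.1 to 8504) in Smoc2 Hsd11b1 fibroblast-like cells, 5.26 times the 1592 CPM of Gdf10 Inmt cells. Dkk2 Bmper fibroblast-like cells were at 1319 CPM, tenocyte-like cells at 213 CPM and Pi16 Dpp4 fibroblast-like cells at 99.2 CPM. Myeloid classes were at 1.64 to 10.5 CPM and erythroid-like cells at 1.58 CPM. After thinning, 86.7% (79.6 to 92.1%) of the Smoc2 Hsd11b1 cells and 0% of 50 erythroid-like cells (up to 7.11%) held a UMI. With all UMIs it was 89.1% and 2.0%, where cells held a median of 16135 and 12636.5 UMIs. Over those Smoc2 Hsd11b1 cells the lower quartile was 963 CPM, the median 6455 CPM and the upper quartile 13138 CPM. Cxcl14 took no part in the gate, which used Smoc2, Hsd11b1, Col15a1 and Adamtsl2, but these were chosen with earlier results of these data known.

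Cxcl12, which retains leukocytes and progenitors through Cxcr4, had a different order. It was highest in endothelial-like cells, at 1163 CPM (1054 to 1279.5), followed by Gdf10 Inmt (696 CPM), Dkk2 Bmper (514 CPM), Smoc2 Hsd11b1 (310.1 CPM) and Pi16 Dpp4 fibroblast-like cells (111 CPM). The endothelial-like class had only 39 cells, and 1 of them held 133 of the 419 UMIs. Without that cell the level was 833 CPM, 1.20 times that of the Gdf10 Inmt class. The 7 barcodes of this class with lymphatic endothelial markers held no Cxcl12 UMI, and the other 32 were at 1421 CPM.

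Ccl21a, the lymphatic ligand of Ccr7, divided the same 39 cells the other way. The 7 barcodes with lymphatic markers held all of its 1767 UMIs, 27008 CPM, and the other 32 cells held none, which allows up to 12.5 CPM. For the class as a whole this gave 4903 CPM, 754 times the next class when classes under 3 UMIs are set to that floor. Ccl19, the other ligand of Ccr7, was at 134 CPM (120.5 to 149) in Dkk2 Bmper and 104 CPM in Gdf10 Inmt fibroblast-like cells and at no more than 0.77 CPM in myeloid classes. A single Dkk2 Bmper cell held 65 of the 341 Ccl19 UMIs of its class.

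Cxcl13, the B cell attractant, was at 301 CPM in Dkk2 Bmper and 101 CPM in Pi16 Dpp4 fibroblast-like cells, and at 26.8 CPM in the Lyve1 Folr2 MHC class II high class. It was concentrated in few cells: 7 of the 162 Dkk2 Bmper cells held at least 50% of its 763 UMIs, and the median cell held none. Ccl27a was low and non-myeloid, with 20.1 CPM in the satellite cell and myoblast-like class, 16.2 CPM in tenocyte-like cells and 0.839 to 2.86 CPM in the myeloid classes. Ccl25 was at 4.92 to 17.0 CPM in all 16 classes other than erythroid-like cells, which held none. Of the membrane-bound ligands, Cxcl16 was myeloid, at 255 CPM in MHC class II macrophage-like and 171 CPM in dendritic cell 1-like cells, and Cx3cl1 did not exceed 11.5 CPM.

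Receptor RNAs were fewer than ligand RNAs. Ccr2, the receptor that brings monocytes out of the marrow and into tissue, was highest in monocyte-like cells, at 822 CPM (789 to 857). It was at 549 CPM in MHC class II macrophage-like, 488 CPM in dendritic cell 2-like, 259 CPM in Lyve1 Folr2 MHC class II high, 247 CPM in dendritic cell 1-like and 178 CPM in Gpnmb Fabp5 macrophage-like cells. The Lyve1 Folr2 MHC class II low class, highest in Ccl2, Ccl7, Ccl8 and Ccl12, had the lowest myeloid Ccr2 level, 33.7 CPM (31.4 to 36.1). Non-myeloid classes were at 0 to 3.12 CPM.

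After thinning, 89.2% (84.8 to 92.6%) of monocyte-like, 7.71% (6.56 to 8.998%) of Lyve1 Folr2 MHC class II low and 0% of 50 erythroid-like cells (up to 7.11%) held a Ccr2 UMI. Counting all UMIs, 94.0%, 11.2% and 2.0% held one, in cells with a median of 10150.0, 11982 and 12636.5 UMIs. After thinning the intervals of the Lyve1 Folr2 MHC class II low and erythroid-like shares overlapped.

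Ccr1, the receptor of Ccl3, Ccl6 and Ccl9, was more even than Ccr2, at 175 to 312 CPM in the macrophage-like and monocyte-like classes, and lower in dendritic cell 2-like (67.6 CPM) and dendritic cell 1-like cells (3.73 CPM). Ccr1 was highest in the Lyve1 Folr2 MHC class II high class, at 312 CPM (302 to 322). Ccr3, the eosinophil receptor, did not pass 2.95 CPM.

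Cxcr4, the signalling receptor of Cxcl12, was at 265 CPM (247 to 285) in monocyte-like cells, 217 CPM in MHC class II macrophage-like cells and 91.9 to 183 CPM in the other myeloid classes. Outside the myeloid classes its highest level was the 56.1 CPM of the satellite cell and myoblast-like class. Ackr3, the atypical receptor that takes up Cxcl12, was a stromal RNA. It was at 1010.1 CPM (984 to 1036) in Pi16 Dpp4 fibroblast-like cells, 5.99 times the 169 CPM (153 to 185) of satellite cell and myoblast-like cells, and at 165 CPM in Dkk2 Bmper, 111 CPM in endothelial-like and 87.9 CPM in tenocyte-like cells. Myeloid classes were at 0.755 to 2.4 CPM.

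Nearly all Pi16 Dpp4 fibroblast-like cells held Ackr3. After thinning a UMI was found in 92.7% (89.2 to 95.3%) of these 313 cells and in 36.7% (30.7 to 43.1%) of satellite cell and myoblast-like cells. None was found in the 50 erythroid-like cells (up to 7.11%), and Schwann-like cells were at 1.41%. In full these classes had 98.4%, 43.3%, 0% and 2.82% of cells with a UMI, and their cells held a median of 18655, 9223, 12636.5 and 8129 UMIs. The quartiles over Pi16 Dpp4 cells were 562, 891 and 1339 CPM. Within the fibroblast-like classes Ackr3 and its ligand Cxcl12 were ordered differently, with Cxcl12 lowest where Ackr3 was highest.

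**Figure D4:**
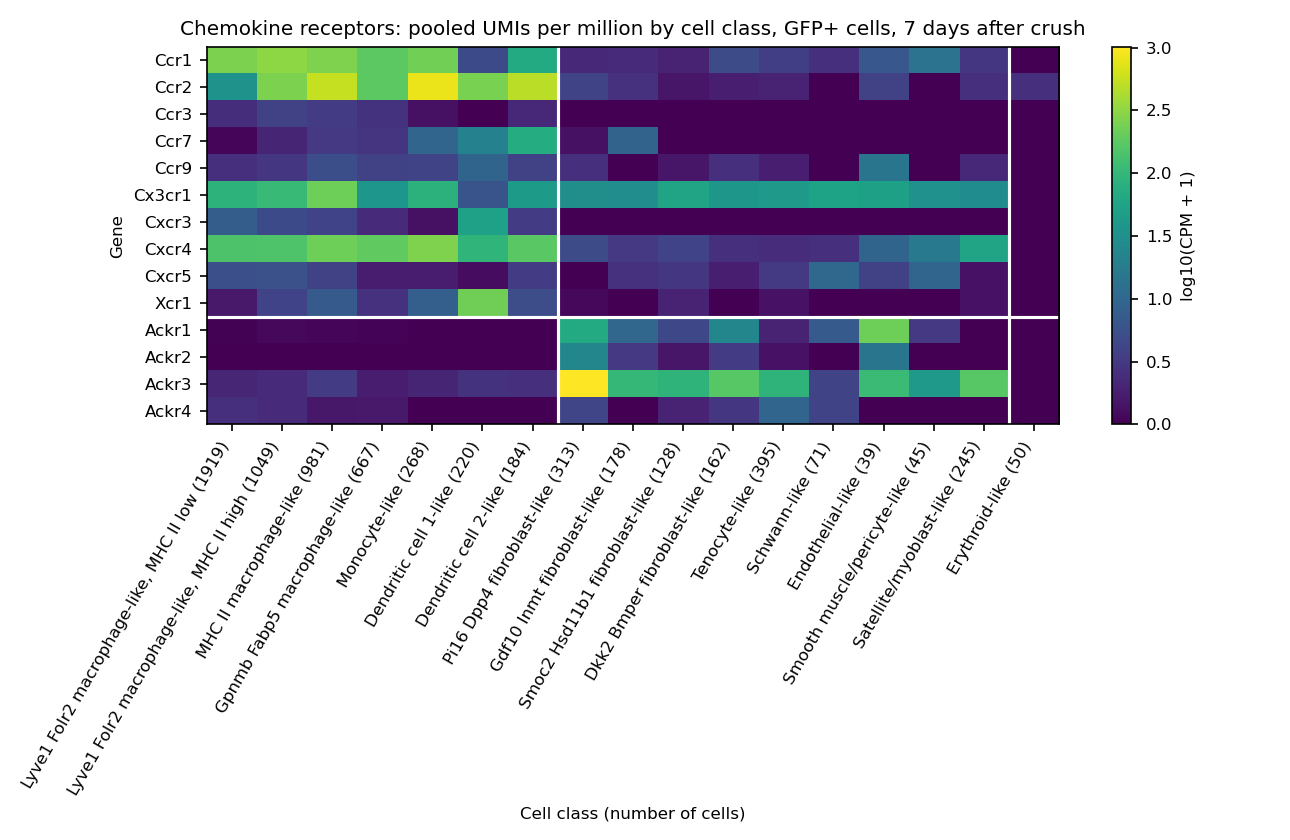
Chemokine receptors by class, as log10(CPM + 1) of pooled UMIs, with the number of cells of each class on the horizontal axis and signalling and atypical receptors on the vertical axis. Ccr2 and Cxcr4 fill the myeloid columns, Ccr1 all of these but dendritic cell 1-like cells, Xcr1 and Cxcr3 stand out in dendritic cell 1-like cells, and Ackr3 reaches 1010.1 CPM in Pi16 Dpp4 fibroblast-like cells.

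Dendritic cell 1-like cells, which had the lowest ligand sum among the myeloid classes, had the clearest receptors. Xcr1, the receptor of Xcl1 and a hallmark of cross-presenting dendritic cells, was at 225 CPM (210.2 to 240) there, 27.0 times the next class when classes under 3 UMIs are set to that floor. Among the classes with more UMIs, monocyte-like cells came next, at 7.07 CPM. Cxcr3, the receptor of Cxcl9 and Cxcl10, was at 51.2 CPM, 6.15 times the next class at the same floor. Xcr1 was not among the genes that gated the class, but these were chosen with earlier results of these data known. Ccr7, which guides dendritic cells to lymph nodes, was highest in dendritic cell 2-like cells, at 72.1 CPM against 20.1 CPM in dendritic cell 1-like cells, a ratio of 3.58. Without the barcodes of the mature dendritic cell list it was at 63.1 and 10.5 CPM, and the ratio of 6.004 made dendritic cell 2-like cells its leading class. The ratio also passed 4 with a gate 1.5 times stricter (8.11), after thinning to 5000 UMIs (4.09) and as a mean of single cells (4.80).

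Cx3cr1, the fractalkine receptor of monocytes and macrophages, met neither rule. It was at 219 CPM (210.1 to 228) in MHC class II macrophage-like cells, 108 CPM and 86.7 CPM in the Lyve1 Folr2 classes with high and low MHC class II, and 36.8 CPM in Gpnmb Fabp5 macrophage-like cells. The 9 non-myeloid classes held 28.0 to 55.5 CPM, against 0 UMIs in erythroid-like cells, which allows up to 5.82 CPM. In the same non-myeloid classes Ccr1, with a higher myeloid level, was at 1.00 to 13.01 CPM, and Ccr2 at 0 to 3.12 CPM.

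Of the other atypical receptors, Ackr1 and Ackr2 were non-myeloid and Ackr4 met neither rule. Ackr1, the receptor of venules and red cells, was at 219 CPM (174 to 273) in endothelial-like cells, but 2 of the 39 cells held 41 and 37 of its 79 UMIs. Pi16 Dpp4 fibroblast-like cells had 68.0 CPM. Ackr2, a scavenger of inflammatory CC ligands, was at 23.1 CPM in Pi16 Dpp4 fibroblast-like cells, and Ackr4, a scavenger of Ccl19 and Ccl21, was at 8.53 CPM in tenocyte-like cells. Cxcr5 and Ccr9 stayed at or under 9.29 and 13.9 CPM, and all 5 Ccr9 UMIs of its highest class, endothelial-like cells, were in 1 cell.

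The remaining members were at or near the limit of this depth. Over the classes, Cxcl17 had 27 UMIs, Ccr6 26, Cxcr6 18, Ccr10 13, Ccl28 9 and Xcl1 4. In all barcodes of the library Xcl1 had 144 UMIs, of which 92 were in the 20 barcodes of the T and natural killer cell list. Ccl1 (7 UMIs), Ccl20 (4 UMIs) and Ccr8 (2 UMIs) were seen only outside the classes. Cxcr1, Ccl21b, Ccl21c and Ccl27b, together with further copies of Ccl27a, Ccl19 and Ccl21a, made up 10 features with no UMI in any barcode. Ccl19, Ccl21 and Ccl27 genes are nearly identical copies in the mouse, and reads that fit several copies go uncounted, so the levels of Ccl19, Ccl21a and Ccl27a are uncertain.

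Ligands and their known receptors were set side by side in 34 pairs, of which 21 had both genes above 100 UMIs. Both genes were myeloid in 12 of the 21, for example Ccl2 with Ccr2 and Ccl6 with Ccr1. Cxcl12 with Ackr3 was the 1 pair with both genes non-myeloid. In 4 pairs the ligand was non-myeloid and the receptor myeloid, namely Ccl11 with Ccr3, Ccl19 with Ccr7, Ccl21a with Ccr7 and Cxcl12 with Cxcr4. These are places of RNA and not measurements of signalling.

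Other genes of the pathway were taken from a list of 25, all of which passed 100 UMIs. By the 4-fold rule 17 were myeloid, 7 met neither rule and 1 was non-myeloid, where 9.0% of all features were myeloid and 17.7% non-myeloid. Pf4, a platelet and macrophage chemokine named outside the scheme, was at 3133 CPM in the Lyve1 Folr2 MHC class II low class, and its myeloid mean was 52.5 times the non-myeloid one. Ccrl2, an atypical receptor-like gene, was highest in Gpnmb Fabp5 macrophage-like cells, at 779 CPM. The haematopoietic signalling genes Dock2 (470.2 CPM in dendritic cell 2-like cells) and Rac2 (185 CPM in monocyte-like cells), which turn receptor signals into movement, were myeloid. Of the G protein genes on the list, Gnai2, Gnai3 and Gnb1 met neither rule and Gng2 was myeloid, with a mean of 177 CPM over the myeloid and 28.9 CPM over the non-myeloid classes. Rgs16, a brake on G protein signals, was the non-myeloid one, at 125 CPM (99.6 to 156) in Schwann-like and 61.0 CPM in endothelial-like cells.

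Some neighbouring genes of 1 chromosome stretch were high in the same cells of a class, and others were not. Rank correlations (Spearman) were taken over cells thinned to 5000 UMIs, for members present in at least 50% of the cells, and they describe cells of 1 library that share its depth and handling. Ccl2 and Ccl7 had a rho of 0.741 over the 1919 Lyve1 Folr2 MHC class II low cells, 0.735 over the 667 Gpnmb Fabp5 cells and 0.686 over the 981 MHC class II macrophage-like cells. Ccl3 and Ccl4 had 0.601, 0.527 and 0.688 in the same order. Ccl6 and Ccl9 had 0.341, 0.536 and 0.330 in that order. In Lyve1 Folr2 MHC class II low cells, Ccl12 had 0.338 with Ccl2 and 0.337 with Ccl7, while Ccl9 had 0.01 with Ccl3 and 0.05 with Ccl4. Ccl6 with Ccl3 had -0.18, 0.08 and -0.16 over the 3 classes in the order above, and Ccl6 with Ccl4 had -0.11, 0.03 and -0.09. Ccr1 and Ccr2 had 0.02 in MHC class II macrophage-like cells. Genes of different chromosomes could be as close, with 0.605 for Cxcl2 and Ccl4 in Lyve1 Folr2 MHC class II low cells and 0.602 for Cxcl10 and Ccl4 in MHC class II macrophage-like cells.

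Over the Lyve1 Folr2 MHC class II low cells, the class where Ccl8 was highest, its rho was -0.07 with Ccl2, -0.03 with Ccl7 and 0.12 with Ccl12, its neighbours, and -0.15 with Cxcl2 and -0.13 with Ccl4. The highest rho of Ccl8 there was 0.20, with Ccl6. Ccl6 had -0.26 with Cxcl16 in MHC class II macrophage-like cells. Values this weak, over cells of 1 library, were read as no finding. Genes of early stress (Fos, Fosb, Jun, Junb, Egr1, Atf3, Ier2, Dusp1, Hspa1a and Hspa1b, a list chosen after values were seen) summed to 9097 to 10390 CPM in the Lyve1 Folr2 and MHC class II macrophage-like classes. They summed to 4559 CPM in Gpnmb Fabp5 macrophage-like and 3824 CPM in monocyte-like cells. Dendritic cell 1-like and dendritic cell 2-like cells had 3935 and 4340 CPM, and non-myeloid classes 5239 to 12348 CPM. Cells were digested warm before they were sorted, and the part of that handling in the inflammatory ligand levels was not tested.

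**Figure D5:**
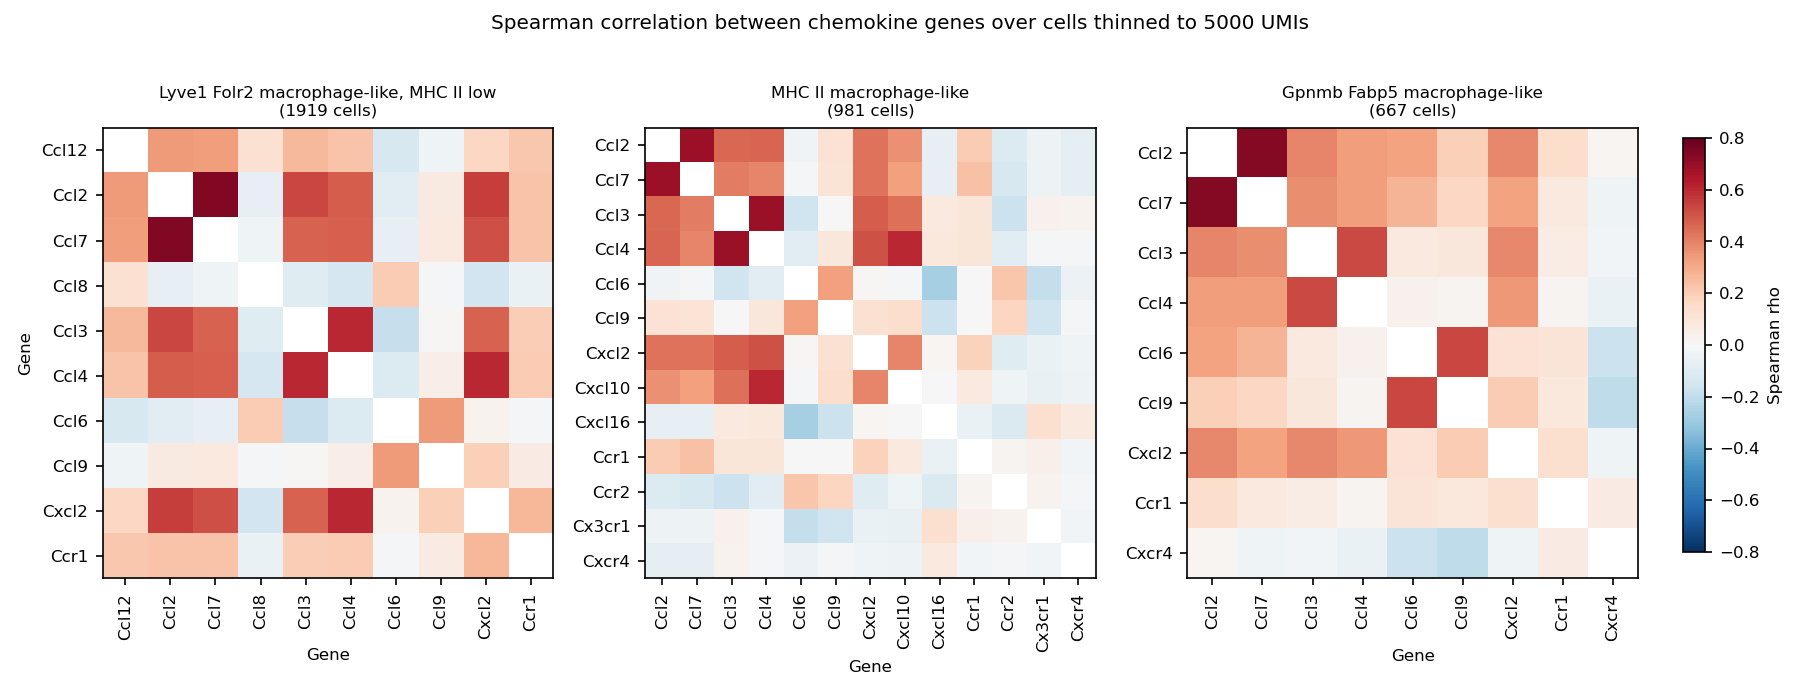
Spearman rho between members present in at least 50% of cells, over cells thinned to 5000 UMIs, in 3 macrophage-like classes (1919, 981 and 667 cells); both axes list genes and the colour runs from blue (negative) to red (positive). Ccl2 with Ccl7 and Ccl3 with Ccl4 are among the reddest cells in all 3 panels, and Ccl8 in the first panel is near 0 or negative with Cxcl2, Ccl3 and Ccl4.

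These comparisons rest on pooled cells of 1 library, so spread between animals is not measured. The leading class of Xcr1 was found under all 13 settings of the processing that were compared, that of Ackr3 and Cxcl14 under 12, of Ccl21a and Cxcr3 under 11, of Ccl22 under 8 and of Cxcl9 under 7. Without the lymphatic barcodes Ccl21a had no leading class.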

How the data were processed

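Single cells of hind limb muscle, sorted as GFP+ and propidium iodide negative, were sequenced on the 10x Genomics 3′ platform. The deposited matrix holds raw counts of UMIs for each feature in each barcode, which the authors obtained from Cell Ranger without normalization. The matrix header names Cell Ranger 8.0.1, the submitters' processing notes name Cell Ranger 7.1.0 and Seurat 4.30, and the study names both GRCm38 and GRCm39, with a reporter sequence added. The matrix gives no coordinates, so positions and promoter windows were taken by symbol from RefSeq GRCm38.p6 (55 symbols had a position). The deposited barcodes had already passed cell calling. The authors' later steps against free RNA and doublets are not in this matrix. The barcode list of the GFP- library was used only to count shared barcodes, and its counts were not analysed here. Columns of per-sample values left unmapped numbered 0.

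Barcodes with at least 5000 UMIs and under 10% mitochondrial counts were gated, first by lineage and then by subset, on the number of detected markers and their summed CPM. No doublet caller was run, and barcodes that passed several lineages (539) or subsets (280) were left out, as were 60 that passed none and 949 of 1 lineage without a class. Names ending in -like come from these markers only. The members and all gene lists were chosen with earlier results of these data known. Each member with at least 100 UMIs over the classes is named with CPM in its highest classes, and the others with UMIs only; 1 member is counted in the totals but not reported here. A call asked for a ratio of at least 4, with a class under 3 UMIs set to 3 UMIs, and the mean over classes gave each class equal weight. The share of cells that held a UMI was computed once every cell had been thinned to 5000 UMIs, which left out no gated cell. With 1 library there is no replicate, no test and no p-value, and depth differed between classes (medians of 6765 to 18655 UMIs). Some members with 3′ ends shared between copies can lose reads in the authors' counting.

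Alternatives were at least 10000 UMIs, no mitochondrial filter, a gate 1.5 times stricter, barcodes of several gates assigned to the best one, thinning to 5000 UMIs, the mean of single cells, no minimum of UMIs, 2-fold and 8-fold calls, and removal of free RNA. Settings without lymphatic barcodes, without mature dendritic barcodes and without the highest cell of each member were added after the data were seen. The call rule was tested on simulated counts of 14094 genes. All 200 genes raised 8-fold were found (100.0%), 0 others were called, and 96.5% of intervals held the true value. Counts were drawn per class from a shared profile, without spread between cells, and the raised genes had more UMIs than most called members. The simulation therefore cannot show how often single cells make a call, as for Cxcl9 and Ccl22. Scripts ran on Python 3.11.15 with pandas 2.3.3, scipy 1.17.1, matplotlib 3.10.9 and numpy 2.4.6.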

Additional observations from a re-analysis of the deposited data

How the results depend on the processing

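The number of members with a leading class was 7 and stayed at 5 to 7 under the planned settings of depth, filter, gate, thinning, weighting and free RNA, but it was 13 when 2-fold and 2 when 8-fold made a call. Members compared numbered 36 to 53, the myeloid count 22 to 26 and the non-myeloid count 9 to 13 wherever they were counted. The setting without the highest cell of each member gave leading classes only. Thinning each cell to 5000 UMIs gave 36 and 22, and 9 came from thinning and from the 8-fold rule. Shares over all features were computed only for the main setting, so none stands beside the counts of the other settings. Of 325 log2 ratios under the alternatives, over 37 members, each between the classes that were highest and next in the main setting, 319 kept their direction. The other 6 belonged to Cx3cl1, Cxcr5 and Ackr2, and the cause was not tested. None of these had a leading class in the main setting, but at 10000 UMIs Ackr2 had one, Pi16 Dpp4 fibroblast-like cells, with a ratio of 8.52. None of the 36 ratios of Ackr3, Cxcl9, Ccl22 and Cxcl14 turned; Ccl21a, Xcr1 and Cxcr3, whose next class stood at the floor of 3 UMIs, had no such ratio. At 10000 UMIs and with the stricter gate Cxcl9 still passed 4-fold between its 2 classes (log2 ratios of 2.36 and 2.62) but had no leading class. Without its highest cell Cxcl9 did turn, at 0.411 times the next class. Settings added after the data were seen gave 6 leading classes without lymphatic barcodes (Ccl21a lost), 7 without mature dendritic barcodes (Ccl22 lost and Ccr7 gained) and 5 without the highest cell of each member (Cxcl9 and Ccl22 lost). At 10000 UMIs the endothelial-like and smooth muscle and pericyte-like classes fell to 14 and 26 cells, below the minimum of 30, and were left out. Removal of free RNA took off 0.106% to 1.31% of a class. Levels near 1 UMI per class, and the 10 members with 1 to 99 UMIs, are limited by depth. No paired analysis was possible because there is 1 library and the result comes from no test.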

Other observations

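Cx3cr1 and Ccl25 were found in all classes other than erythroid-like cells. Cx3cr1, which was highest in MHC class II macrophage-like cells, was at 28.0 to 55.5 CPM in the 9 non-myeloid classes and was absent from the 50 erythroid-like cells, which allows up to 5.82 CPM. In Schwann-like cells it was at 54.2 CPM (37.7 to 75.3), and 16.9% of the 71 cells held a UMI after thinning (25.4% unthinned). Ccl25 was at 9.13 CPM (7.97 to 10.4) in the Lyve1 Folr2 class with low MHC class II and at 11.1 CPM (8.55 to 14.2) in Pi16 Dpp4 fibroblast-like cells. Whether these reads come from the genes' own transcripts was not tested.

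Among the pathway genes, Rgs18 and Rgs1, which brake G protein signals in blood cells, had myeloid means 256 and 68.4 times their non-myeloid means. Dpp4, an enzyme that trims several chemokines, was at 405 CPM in Pi16 Dpp4 fibroblast-like cells, where it is a marker of the gate and so no result, and at 142 CPM in dendritic cell 1-like cells. The lymphatic endothelial list was passed by 8 barcodes and the mast cell list by 1, and no barcode passed the B cell list, so Cxcl13 was measured without a class of B cells.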
